A study of Homo sapiens with 27 samples.

Results

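The genes of polyamine synthesis and breakdown were described after knockdown of SIRT5 in A2058, A375 and SKMEL2, which are 3 lines of human melanoma cells. The SIRT5 protein, a deacylase of the sirtuin family, takes succinyl, malonyl and glutaryl groups off lysines, mostly in mitochondria. The 10 members were chosen by gene symbol from the 26004 genes of the deposited expression table. They are ODC1, AMD1, SRM, SMS and ARG2 on the synthesis side, SAT1, SMOX and PAOX on the breakdown side, and the antizymes OAZ1 and OAZ2. No expression value enters that rule, but the symbols were proposed with knockdown results of these libraries known, so changes against control are given below as descriptions without p-values. Tests are given for the difference between knockdown arms, for its variation between lines and for the control levels. The knockdown effect is also compared between lines. That comparison is built from the same changes against control, so its p-values are descriptions and lend no support.

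Each line has 3 control libraries (NT), which carried a non-silencing hairpin against Gaussia luciferase, and 3 libraries in each of the arms KD1 and KD2, which carried different lentiviral hairpins against SIRT5. All 27 libraries, controls included, come from infected cells under selection with 1 µg/ml puromycin, harvested 96 h after infection. As background, A2058 and A375 are lines with mutated BRAF and SKMEL2 (SK-MEL-2) is a line with mutated NRAS. The labels name the hairpins by other numbers than the table, so the arms are called KD1 and KD2 only. Both arms of a line are set against the same 3 controls, and each arm is a pool of infected cells with 1 hairpin. The libraries of an arm are separate wells, and p-values measure the spread between these wells, which may be technical.

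Putrescine, spermidine and spermine are small polycations that bind nucleic acids and are needed for growth. Ornithine is decarboxylated to putrescine, and aminopropyl groups from decarboxylated S-adenosylmethionine turn putrescine into spermidine and then spermine. The way back runs through acetylation and oxidation, and the cell holds the pool steady mainly at ODC1, AMD1, SAT1 and the antizymes, much of it after transcription.

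The antizymes bind ODC1 protein and send it to the proteasome without ubiquitin. They are made only when the ribosome slips forward by 1 base within the coding sequence, a step that polyamines promote. The site is shown because RNA levels of OAZ1 and OAZ2, given below, do not measure this step. Capitals mark the last codon before the slip and the stop codon that is read through in the new frame (GRCh38, read at the base that GENCODE 44 leaves out of the coding exons). The site follows 68 codons in OAZ1 (chr19:2271428-2271457, plus strand) and 32 codons in OAZ2 (chr15:64691501-64691530, minus strand).
OAZ1: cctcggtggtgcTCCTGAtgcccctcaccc
OAZ2: cctctgtggtgcTCCTGAtgcccctcaccc

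ODC1 and SRM are known targets of MYC, whose partners in the MAX network share the E-box CACGTG. RefSeq promoter windows of 300 bases (GRCh38.p14), from 250 before to 50 after a start, were found for 8 of the 10 members. SMOX and PAOX had no entry. The E-box reads alike on both strands, and 7.26% of all 35116 windows hold it. It was found in 2 of the 11 member windows, once in SRM and at 2 places in the second of the ODC1 windows. The first ODC1 window (10448278 to 10448577) spans the annotated gene start at 10448327 and held no E-box. The second (10447963 to 10448262) lies within the annotated gene, so its positions count from an internal start. A pair or more of E-boxes stood in 0.664% of all windows. The stretches around them are printed 5′ to 3′, with the E-boxes in capitals.
SRM, first E-box base at -199 (chr1:11060172-11060257, minus strand): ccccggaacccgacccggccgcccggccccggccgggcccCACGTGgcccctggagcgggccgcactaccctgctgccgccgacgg
ODC1, first E-box bases at -29 and 6 (chr2:10447963-10448081, minus strand): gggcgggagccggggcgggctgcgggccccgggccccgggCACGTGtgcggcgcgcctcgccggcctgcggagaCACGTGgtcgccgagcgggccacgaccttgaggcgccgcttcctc

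Levels are in FPKM, which here are read fragments scaled to gene length and to a DESeq2 size factor of each library, not to its total reads. SIRT5 itself was lower in every knockdown library than in every control of its line. In A2058 it held 1.81 to 2.36 FPKM in the controls against 0.147 to 0.444 after knockdown. It stood at 1.16 to 1.37 against 0.0125 to 0.187 in A375, and at 2.90 to 3.55 against 0.229 to 0.712 in SKMEL2. The arms were not alike in SIRT5, since every KD2 library lay above every KD1 library of its line. The ratio of mean FPKM, KD2 to KD1, was 2.38 in A2058, 3.19 in A375 and 2.85 in SKMEL2. The part of this in the differences between arms given below was not tested. The melanocyte markers SOX10 and S100B were present in the controls of all lines, with mean levels of 30.8 to 277 FPKM. A375 controls had little of the pigment genes, with MLANA at 0.178, PMEL at 0.836 and TYR, DCT and TYRP1 at 0.0382 or less. The A375 libraries were the shallowest, with 7.1 to 23.9 M assigned reads (M for mega), beside 29.3 to 54.5 M for A2058 and 20.2 to 40.5 M for SKMEL2. Library 3 of the A375 KD2 arm stood apart. Over 12629 genes it correlated with the other libraries of its arm at 0.948 to 0.963 and with the controls at 0.94 to 0.947. Calls of members that change without it are given both ways.

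Of the 10 members, 9 passed the filter of at least 1 FPKM in at least 3 libraries of a fit. Each change, with its SE, was fitted by limma to log2(FPKM + 0.5). It is written as a rise or a fall only where the Benjamini-Hochberg adjusted p, over all tested genes, was under 0.05. With the 2 knockdown arms averaged, 8 of the 9 members were called in A2058 (4 higher, 4 lower), where 69.3% of all genes were called. In A375 7 were called (4 higher, 3 lower) against 47.9% of all genes, and in SKMEL2 8 (5 higher, 3 lower) against 65.3%. Over the mean of the lines 6 were called (3 higher, 3 lower) against 64.1%. Nothing is read from these counts, since the members were proposed with these contrasts known. The median change of the 9 members was -0.01 in A2058, 0.12 in A375 and 0.12 in SKMEL2, and that of all genes was -0.01, 0.02 and 0.00. In bulk RNA, fewer cells of a kind and less RNA per cell cannot be told apart.

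**Figure D1:**
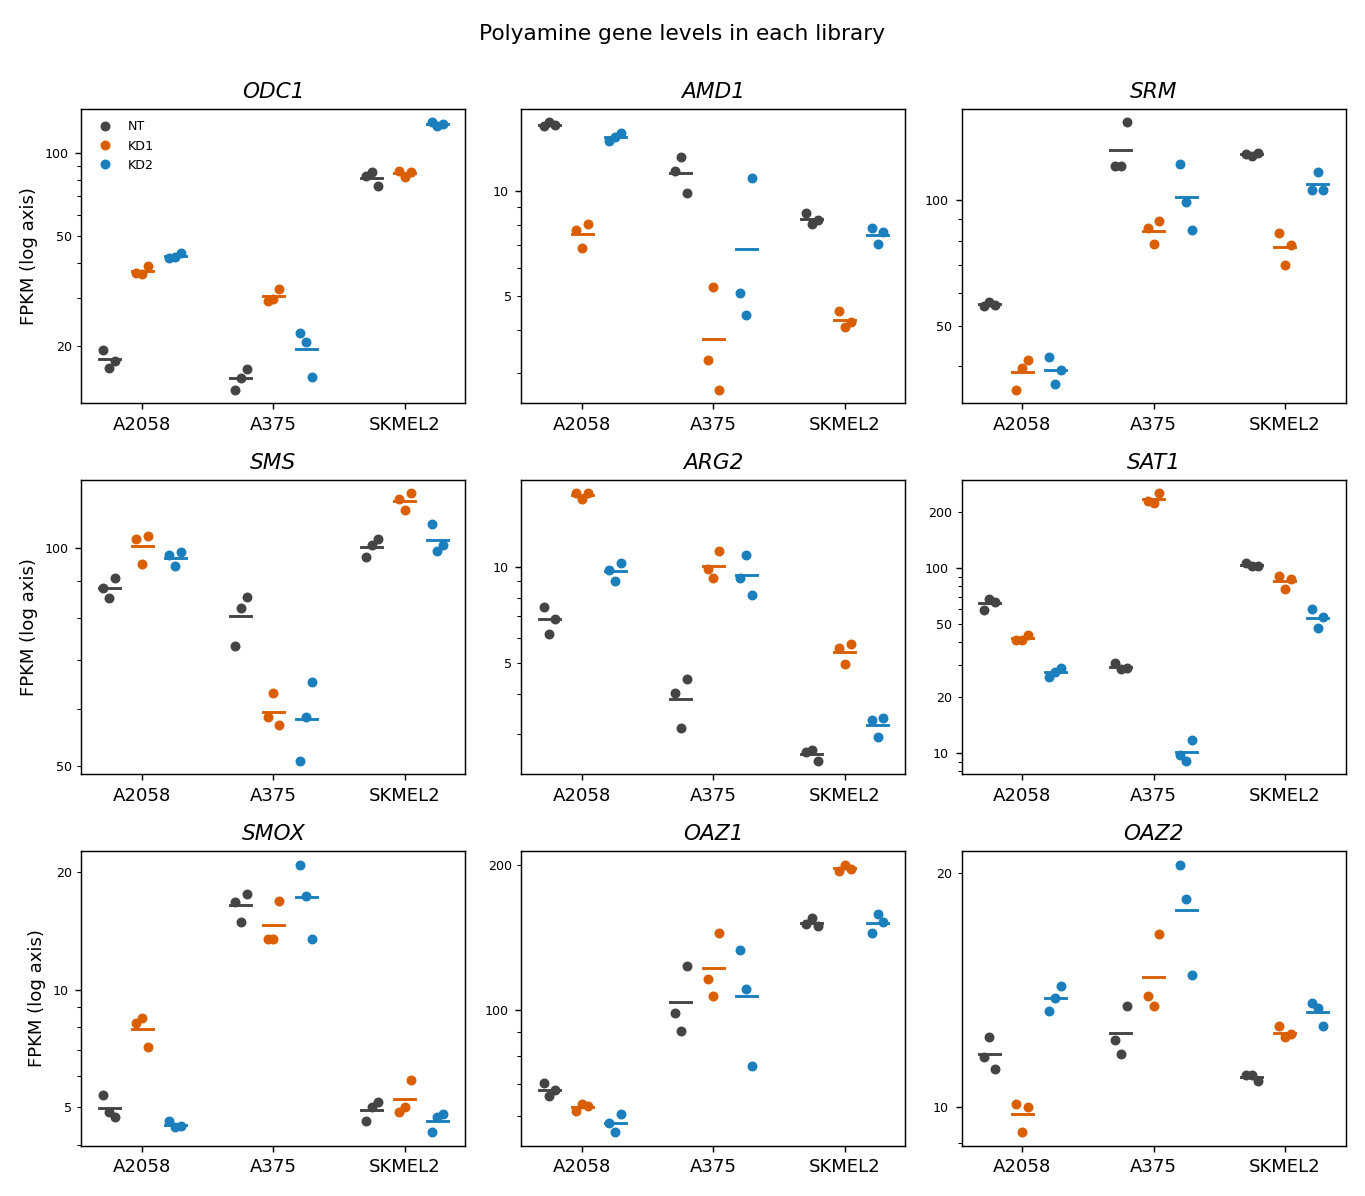
FPKM of 9 polyamine genes in each of the 27 libraries on log axes, with 3 libraries for each arm of each line and a bar at the arm's mean. ODC1 and ARG2 lie higher and SRM lower in most knockdown libraries, and SAT1 in A375 lies at 224 to 253 in KD1 and at 9.06 to 11.8 in KD2, on either side of the controls.

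ODC1 (ENSG00000115758, chromosome 2, 10439968 to 10448327, minus strand, GENCODE 44 on GRCh38) encodes ornithine decarboxylase, which makes putrescine and commits ornithine to the pathway. In A2058 it stood at 19.4, 16.7 and 17.7 FPKM in the controls, 36.8, 36.5 and 39.1 in KD1 and 41.7, 42.0 and 43.7 in KD2. Every knockdown library lay above every control. The rise was 1.05 ± 0.05 in KD1 and 1.22 ± 0.05 in KD2 on the log2 scale.

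In A375 ODC1 stood at 13.9, 15.4 and 16.6 FPKM in the controls, 29.2, 29.6 and 32.3 in KD1 and 22.3, 20.7 and 15.5 in KD2. KD1 lay wholly above the controls, while KD2 overlapped them through library 3, its lowest. The KD1 rise was 0.97 ± 0.14. The KD2 difference was 0.33 ± 0.14 and did not pass, and without library 3 it was 0.48 ± 0.11 and passed, as it also did in a fit of all 27 libraries.

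In SKMEL2 the gene began far higher, at 82.8, 85.5 and 75.9 FPKM in the controls. KD1 held 86.0, 82.4 and 85.7 and KD2 129.6, 126 and 128. KD1 overlapped the controls and differed from them by 0.06 ± 0.04, which did not pass (0.10 by limma-voom, which did), whereas every KD2 library lay above both other arms, a rise of 0.65 ± 0.04. The arms therefore took different orders by line. KD2 minus KD1 was 0.18 (95% interval 0.06 to 0.30, limma adjusted p = 0.014) in A2058, -0.64 (-0.96 to -0.32, adjusted p = 0.0058) in A375 and 0.59 (0.49 to 0.69, adjusted p = 2.1e-06) in SKMEL2. In a fit of all 27 libraries the A2058 difference did not pass (adjusted p = 0.12). The F-test of that difference between lines gave an adjusted p of 3.1e-07.

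AMD1 (ENSG00000123505, chromosome 6, 110874770 to 110898879, plus strand) encodes adenosylmethionine decarboxylase, which makes the aminopropyl donor for both spermidine and spermine. In A2058 the controls held 15.3, 15.7 and 15.4 FPKM, KD1 7.73, 6.86 and 8.03 and KD2 13.9, 14.2 and 14.6. KD1 lay far below both other arms, and KD2 just below the controls without overlap. The KD1 fall was -0.99 ± 0.06, and the KD2 difference of -0.12 ± 0.06 did not pass. It was -0.16 and passed by limma-voom, and -0.12 and passed without KD1 library 2.

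SKMEL2 gave much the same picture for AMD1 from a lower start, with 8.61, 8.02 and 8.25 FPKM in the controls, 4.51, 4.06 and 4.20 in KD1 and 7.83, 7.02 and 7.60 in KD2. Again KD1 was lowest, and all libraries of both knockdown arms lay under the controls. The change was -0.89 ± 0.05 in KD1 and -0.14 ± 0.05 in KD2, and both passed. The KD2 call was lost under 5 of the alternative settings, and without any single control library, KD1 library 3 or KD2 library 2 or 3, with values of -0.10 to -0.16.

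In A375 AMD1 stood at 11.4, 12.5 and 9.82 FPKM in the controls, 3.28, 5.29 and 2.69 in KD1 and 5.11, 4.42 and 10.9 in KD2. The 2 first KD2 libraries were low, and library 3 lay within the controls. The KD1 fall was -1.51 ± 0.31. The KD2 difference was -0.78 ± 0.31 and did not pass, and without library 3 it was -1.16 ± 0.22 and passed, as did the -0.78 in a fit of all 27 libraries. KD2 was higher than KD1 by 0.87 (0.75 to 1.00, limma adjusted p = 2.2e-07) in A2058 and by 0.75 (0.62 to 0.87, adjusted p = 1.8e-06) in SKMEL2. In A375 it was 0.72 (0.03 to 1.42, adjusted p = 0.094), or 0.35 (adjusted p = 0.2) without library 3 and 0.97 (adjusted p = 0.046) without KD1 library 2. The A375 value passed under quantile normalization (0.83, adjusted p = 0.047), with libraries centred on their median (0.82, adjusted p = 0.039) and in a fit of all 27 libraries (adjusted p = 0.0065). The difference between arms was not shown to vary by line (F-test, adjusted p = 0.88).

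SRM (ENSG00000116649, chromosome 1, 11054584 to 11060020, minus strand), spermidine synthase, joins the aminopropyl group to putrescine. In A2058 it stood at 55.7, 56.9 and 56.2 FPKM in the controls, 35.1, 39.6 and 41.5 in KD1 and 42.2, 36.3 and 39.2 in KD2. The knockdown arms overlapped each other and lay wholly under the controls. The fall was -0.54 ± 0.07 in KD1 and -0.52 ± 0.07 in KD2.

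In SKMEL2 SRM fell from 129, 128 and 129.9 FPKM to 83.5, 70.1 and 78.2 in KD1, by -0.74 ± 0.06, and to 106, 117 and 106 in KD2, by -0.24 ± 0.06. The 3 arms did not overlap, and KD1 was lowest, and the KD2 call was lost in a fit of all 27 libraries. A375 held 121, 121 and 154 in the controls, 85.9, 78.7 and 89.2 in KD1 and 122, 99.1 and 85.0 in KD2. There KD1 fell by 0.63 on the log2 scale (-0.63 ± 0.16), while KD2 overlapped the controls and its -0.38 ± 0.16 did not pass, nor the -0.25 ± 0.14 without library 3. It was -0.71 under quantile normalization, -0.59 by limma-voom and -0.51 without KD2 library 1, and passed each time. The -0.38 also passed in a fit of all 27 libraries.

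With the arms averaged, the SRM fall was -0.53 ± 0.06 in A2058, -0.50 ± 0.13 in A375 and -0.49 ± 0.05 in SKMEL2. This knockdown effect was not shown to differ between lines (limma F-test, adjusted p = 0.97), and the line-to-line differences had 95% intervals within -0.26 to 0.31. It did pass under quantile normalization (adjusted p = 0.011) and by limma-voom (adjusted p = 0.029). Without control library 3 the averaged A375 change was -0.39 and did not pass. The arms of SRM did differ by line (adjusted p = 0.032), KD2 standing above KD1 by 0.50 (adjusted p = 6e-05) in SKMEL2 and by 0.02 (adjusted p = 0.81) in A2058. In A375 it was 0.26 (adjusted p = 0.22), and 0.38 (adjusted p = 0.047) without KD2 library 3. With each library centred on its median that difference between lines no longer passed (adjusted p = 0.14), nor did it with the replicate block (adjusted p = 0.077) or without A2058 KD1 library 2 or 3, A2058 KD2 library 2 or 3, SKMEL2 KD1 library 2 or SKMEL2 KD2 library 2 (adjusted p = 0.054 to 0.088).

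SMS (ENSG00000102172, chromosome X, 21940709 to 21994837, plus strand), spermine synthase, makes spermine from spermidine. The A2058 controls held 88.2, 85.3 and 90.8 FPKM, KD1 103, 95 and 104 and KD2 97.9, 94.5 and 98.7. The knockdown libraries lay above the controls by little, 0.19 ± 0.04 in KD1 and 0.14 ± 0.04 in KD2. This rise turned to -0.02 in KD1 and shrank to 0.01 in KD2 under quantile normalization. In KD1 it was 0.09 by limma-voom and did not pass. In KD2 it did not pass without control library 2 (0.12) or in a fit of all 27 libraries (0.14).

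In A375 SMS went the other way, from 73.2, 82.7 and 85.7 FPKM to 58.5, 63.0 and 56.9 in KD1 and 50.8, 58.4 and 65.3 in KD2. Every knockdown library lay under every control, with falls of -0.43 ± 0.12 and -0.47 ± 0.12. The KD1 call was lost without control library 2 or 3 or KD1 library 1 or 3 (-0.39 to -0.42), and the KD2 call without control library 2 (-0.45) or with libraries centred on their median (-0.36). In SKMEL2 the controls held 97.1, 101 and 103, KD1 117, 113 and 119 and KD2 108, 99.2 and 101. KD1 was higher by 0.21 ± 0.04 without overlap, and the 0.03 ± 0.04 of KD2 did not pass. The A375 knockdown effect was lower than that of A2058 by -0.62 (-0.80 to -0.43, limma adjusted p = 1.3e-05). The F-test over the lines gave an adjusted p of 8.4e-06. Both describe a difference in direction seen in these same libraries.

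ARG2 (ENSG00000081181, chromosome 14, 67619920 to 67651708, plus strand) is the mitochondrial arginase, which splits arginine into urea and the ornithine that ODC1 uses. It rose in both arms of every line. In A2058 it stood at 7.49, 6.18 and 6.85 FPKM in the controls, 17.0, 16.3 and 17.0 in KD1 and 9.76, 9.04 and 10.3 in KD2. KD1 was highest and the 3 arms did not overlap, with rises of 1.24 ± 0.07 and 0.48 ± 0.07.

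SKMEL2 had the same order for ARG2, with 2.62, 2.66 and 2.46 FPKM in the controls, 5.56, 4.95 and 5.75 in KD1 and 3.30, 2.92 and 3.35 in KD2. The rises were 0.94 ± 0.07 and 0.26 ± 0.07, the latter short of the threshold in a fit of all 27 libraries. In A375 the controls held 4.02, 3.12 and 4.44, KD1 9.86, 9.21 and 11.2 and KD2 9.24, 10.9 and 8.16. Here the knockdown arms overlapped each other and lay above all controls, with rises of 1.29 ± 0.15 and 1.19 ± 0.15.

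KD2 stood below KD1 in ARG2 by -0.76 (limma adjusted p = 3.3e-06) in A2058 and -0.68 (adjusted p = 1.6e-05) in SKMEL2, and in A375 the difference was -0.10 (-0.44 to 0.25, adjusted p = 0.65). The difference between arms varied by line (F-test, adjusted p = 0.0016). ARG2 shares 4624 bases of its span with VTI1B on the opposite strand, and no source used here says whether counting used the strand, so some of its reads may be counted for either gene.

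SAT1 (ENSG00000130066, chromosome X, 23783173 to 23786210, plus strand) encodes spermidine/spermine N1-acetyltransferase, which starts the breakdown and export of polyamines. In A2058 it stood at 59.3, 68.2 and 65.7 FPKM in the controls, 41.0, 41.0 and 43.7 in KD1 and 25.9, 27.5 and 29.0 in KD2. The arms stepped down without overlap, by -0.61 ± 0.06 in KD1 and -1.21 ± 0.06 in KD2. SKMEL2 stepped down alike, from 106, 103 and 102 to 90.8, 77.0 and 87.0 in KD1 and 59.8, 47.3 and 54.2 in KD2, by -0.29 ± 0.08 and -0.95 ± 0.08.

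In A375 the arms of SAT1 moved in opposite directions. The controls held 30.8, 28.4 and 28.8 FPKM, KD1 229, 224 and 253 and KD2 9.74, 9.06 and 11.8. All KD1 libraries lay far above and all KD2 libraries far below the controls. KD1 rose by 2.98 ± 0.12, with a ratio of mean FPKM of 8.03, and KD2 fell by 1.48 on the log2 scale (-1.48 ± 0.12), with a ratio of 0.348. The average of the arms, 0.75 ± 0.10, describes neither.

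KD2 minus KD1 in SAT1 was -4.47 (-4.74 to -4.20, limma adjusted p = 7.3e-08) in A375, -4.57 without library 3, against -0.60 (-0.73 to -0.47, adjusted p = 5.9e-06) in A2058 and -0.66 (-0.84 to -0.47, adjusted p = 7.1e-05) in SKMEL2. The F-test of this difference between lines gave an adjusted p of 3.4e-15. In the authors' deposited table, which compares all knockdown libraries of A375 with its controls, SAT1 has a log2 fold change of 2.06 with an SE of 1.15 and an adjusted p of 0.18.

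**Figure D2:**
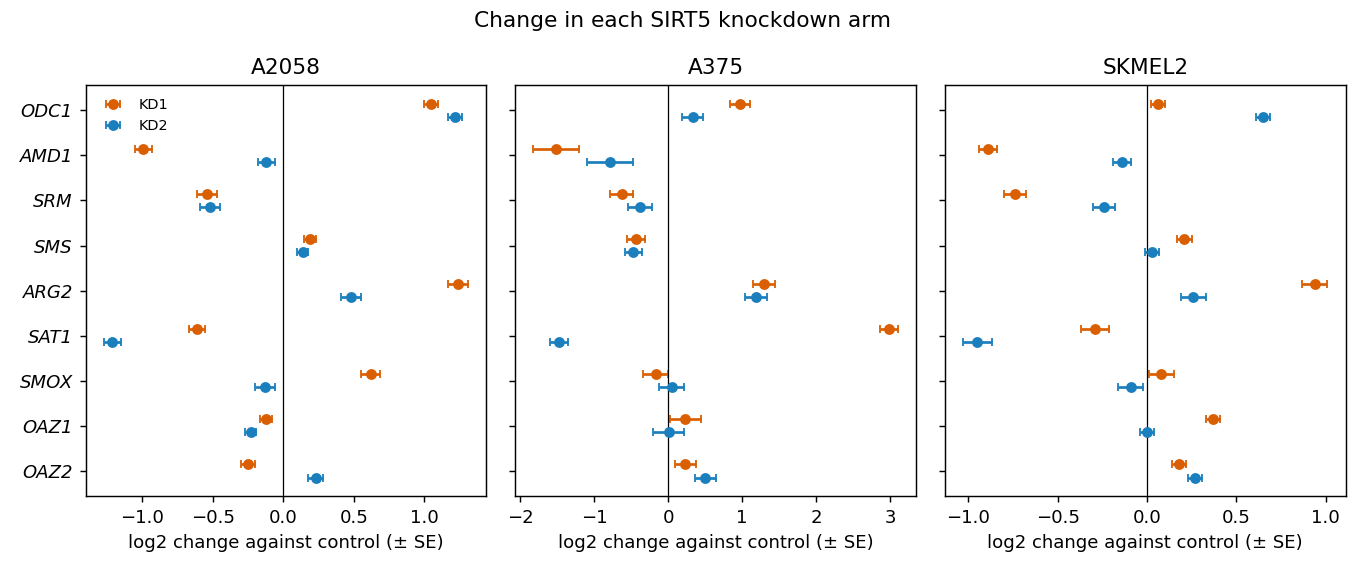
Log2 change of 9 polyamine genes against the control libraries in KD1 and KD2 of each line, with limma's SE as bars and 3 libraries an arm. The A375 panel has a wider axis, where SAT1 lies at 2.98 in KD1 and -1.48 in KD2; ARG2 lies to the right of 0 in all 6 arms and SRM to the left.

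SMOX (ENSG00000088826, chromosome 20, 4120980 to 4187747, plus strand), spermine oxidase, turns spermine straight back into spermidine and releases hydrogen peroxide. In A2058 it stood at 5.38, 4.85 and 4.73 FPKM in the controls, 8.21, 8.46 and 7.14 in KD1 and 4.6, 4.45 and 4.48 in KD2. KD1 alone lay above the controls, by 0.62 ± 0.07, and KD2 lay just under them, by -0.13 ± 0.07, which did not pass. KD2 was lower than KD1 by -0.75 (-0.91 to -0.59, limma adjusted p = 3.9e-06).

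In A375 SMOX stood at 16.8, 14.9 and 17.6 FPKM in the controls, 13.5, 13.5 and 16.9 in KD1 and 20.9, 17.4 and 13.5 in KD2. In SKMEL2 it stood at 4.62, 5.0 and 5.16, then 4.85, 5.0 and 5.88 and then 4.31, 4.73 and 4.79. Both knockdown arms overlapped the controls in each of these lines, and no change against control passed, although by limma-voom A375 KD1 was lower by -0.43 and passed. KD2 minus KD1 was 0.22 (-0.15 to 0.59, adjusted p = 0.33) in A375, and 0.38 (adjusted p = 0.041) without KD2 library 3. In SKMEL2 it was -0.16 (-0.33 to 0.00, adjusted p = 0.074), and -0.21 (adjusted p = 0.041) without KD1 library 1. The F-test of the arms' difference between lines gave an adjusted p of 0.00019.

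PAOX (ENSG00000148832, chromosome 10, 133379261 to 133391694, plus strand), the peroxisomal oxidase of acetylated polyamines, was near the floor of detection. Its highest level was 0.402 FPKM, and it had 0 to 31 reads a library. PAOX shares 11678 bases of its span with another protein-coding gene model on the same strand. How far this overlap lowers its count was not tested. A2058 controls held 16 to 30 reads and SKMEL2 controls 24 to 30, while A375 controls held 0 to 2. In SKMEL2 every KD2 library, at 0.0558 to 0.221 FPKM, lay below every control, at 0.288 to 0.402, and below every KD1 library. It passed the filter in no fit. With no filter the SKMEL2 KD2 difference was -0.44 ± 0.11 and passed, and KD2 minus KD1 there was -0.40 (limma adjusted p = 0.013), on 3 to 18 reads in KD2. The A375 controls were then below those of A2058 by -0.54 (adjusted p = 0.0003).

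OAZ1 (ENSG00000104904, chromosome 19, 2269509 to 2273490, plus strand), the most abundant antizyme, stood at 70.5, 66.0 and 68.2 FPKM in A2058 controls, 61.7, 63.7 and 63.2 in KD1 and 58.0, 55.6 and 60.8 in KD2. It fell slightly, by -0.12 ± 0.04 and -0.23 ± 0.04, and both calls were lost in a fit of all 27 libraries. The KD1 call was also lost with no variance trend (-0.12). Leaving out control library 1 (-0.09) or 3 (-0.12) or KD1 library 1 (-0.10) or 3 (-0.12) lost it as well. In SKMEL2 the controls held 151, 155 and 149, KD1 194, 200.2 and 196 and KD2 144, 158 and 152. KD1 rose by 0.37 ± 0.04 without overlap, and KD2 overlapped the controls at -0.00 ± 0.04. KD2 was lower than KD1 by -0.38 (-0.46 to -0.29, limma adjusted p = 1.9e-05) in SKMEL2.

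In A375 OAZ1 varied widely within each arm, from 98.5, 90.4 and 123 FPKM in the controls to 116, 107 and 144 in KD1 and 133, 110.3 and 76.3 in KD2. The arms overlapped, and the changes of 0.23 ± 0.21 and 0.01 ± 0.21 did not pass. Under quantile normalization they turned to -0.12 and -0.33, the second past the threshold. The summed FPKM of all genes also varied among the A375 libraries, from 276729 in control 2 to 418033 in KD2 library 1. The 2 lowest OAZ1 values lay in libraries with sums of 307910 and 276729 and the 2 highest in libraries with 390993 and 418033, but control 3 held 123 at a sum of 308973. The part of that sum in the result was not tested.

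OAZ2 (ENSG00000180304, chromosome 15, 64687573 to 64703281, minus strand), the second antizyme, stood at 11.6, 12.3 and 11.2 FPKM in A2058 controls, 10.1, 9.28 and 10 in KD1 and 13.3, 13.8 and 14.3 in KD2. The arms lay on either side of the controls without overlap, at -0.25 ± 0.05 and 0.23 ± 0.05, and both passed. KD2 exceeded KD1 by 0.48 (0.36 to 0.59, limma adjusted p = 1.3e-05).

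In SKMEL2 OAZ2 rose from 11, 11 and 10.8 FPKM to 12.7, 12.3 and 12.4 in KD1, by 0.18 ± 0.04, and to 13.6, 13.4 and 12.7 in KD2, by 0.27 ± 0.04, and the KD1 call was lost in a fit of all 27 libraries. In A375 it stood at 12.2, 11.7 and 13.5, then 13.9, 13.5 and 16.7 and then 20.5, 18.5 and 14.8. KD2 rose by 0.50 ± 0.14 and the 0.23 ± 0.14 of KD1 did not pass. Every knockdown library lay above the controls in these lines, A375 KD1 library 2 only just. The A375 KD2 call was lost without control library 1 or 2 or KD2 library 1 or 2 (0.40 to 0.49) and with the replicate block (0.50). The rise was 0.63 ± 0.13 without KD2 library 3. KD2 minus KD1 in A375 was 0.27 (adjusted p = 0.16), and 0.40 (adjusted p = 0.021) without that library. The arms' difference varied by line with an adjusted p of 0.036, which moved to 0.066 with libraries centred on their median. It did not pass with the replicate block (adjusted p = 0.095), nor without A2058 KD1 library 2, A2058 KD2 library 2 or 3, any single SKMEL2 KD1 library or SKMEL2 KD2 library 2 or 3 (adjusted p = 0.054 to 0.085).

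GENCODE lists pseudogenes named for AMD1 (5), SRM (3), SMS (1) and OAZ1 (1), and reads shared with such copies make those levels uncertain to an extent that was not tested. OAZ1 also lies within a longer same-strand gene model over 3966 bases.

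Between the arms, 7 of 9 members differed in A2058, where 72.3% of all genes did. In A375 the count was 2 against 38.1%, and 5 without KD2 library 3, against 51.6% of all genes in that fit. In SKMEL2 it was 7 against 68.5%. The arms' difference varied between lines for 6 members against 54.3% of all genes, and the averaged knockdown effect for 5 against 61.1%. With 9 members, each of these counts lies within 2 members of its background share. The 2 members in A375 were ODC1 and SAT1. The averaged effect differed between lines in SAT1 (adjusted p = 2.4e-10), SMS (8.4e-06), ODC1 (2.5e-05), ARG2 (0.0011) and OAZ2 (0.019), by limma's F-test. In SAT1 the A375 average describes neither arm, with 2.98 in KD1 and -1.48 in KD2. The OAZ2 result did not pass with the replicate block (0.059), or without A2058 control 2 (0.06) or A375 control 2 (0.052). For AMD1 it gave 0.061, and 0.00028 without A375 KD2 library 3 or 0.012 without A375 KD1 library 2. OAZ1 had 0.14, and 0.0092 without A375 KD2 library 3, and SMOX 0.14, and 0.037 without A375 KD2 library 1.

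**Figure D3:**
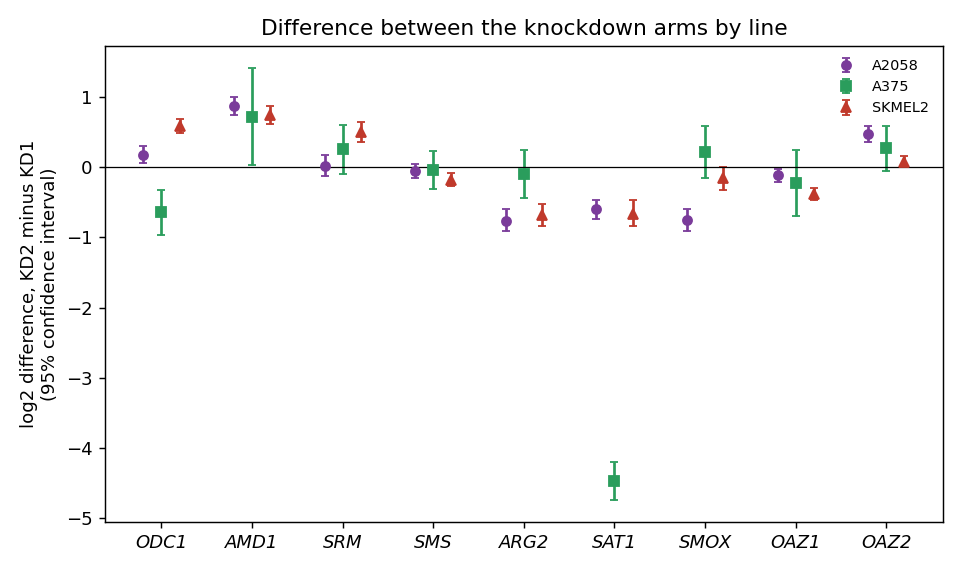
KD2 minus KD1 on the log2 scale for 9 polyamine genes in each line, with 95% confidence intervals from limma and 3 libraries an arm. AMD1 lies above 0 in all 3 lines, at 0.72 to 0.87, and SAT1 below 0 in all 3, at -4.47 in A375; ODC1 lies below 0 only in A375.

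The control libraries gave the resting levels. By mean FPKM with SD over n = 3, ODC1 stood at 81.4 ± 4.95 in SKMEL2, 17.9 ± 1.33 in A2058 and 15.3 ± 1.31 in A375. The step from A375 to SKMEL2 was 2.38 (limma adjusted p = 5e-16). That between A375 and A2058 was -0.22 (adjusted p = 0.036). With libraries centred on their median it was -0.13 and did not pass (adjusted p = 0.34). Nor did it pass with the replicate block (adjusted p = 0.15), or without A2058 control 1 or 3 or A375 control 1 or 2 (adjusted p = 0.059 to 0.17). SAT1 had the order SKMEL2 at 104 ± 2.00, A2058 at 64.4 ± 4.56 and A375 at 29.3 ± 1.28, each step past the threshold (A375 to A2058 adjusted p = 2.6e-10, A2058 to SKMEL2 adjusted p = 6.4e-07). ODC1 and SAT1 were thus both highest in SKMEL2.

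SRM was at 132 ± 19.2 in A375 and 129 ± 0.834 in SKMEL2, a pair not shown to differ (-0.02, -0.25 to 0.20, adjusted p = 0.86), and at 56.3 ± 0.557 in A2058, lower than A375 by 1.21 on the log2 scale (adjusted p = 1.3e-09). SMOX was set apart in A375, at 16.4 ± 1.41 against 4.99 ± 0.346 in A2058 and 4.93 ± 0.278 in SKMEL2. A375 exceeded A2058 in SMOX by 1.62 (adjusted p = 4.3e-11). OAZ1 ran from 152 ± 3.17 in SKMEL2 through 104 ± 17.0 in A375 to 68.2 ± 2.27 in A2058.

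ARG2 ran the other way, from 6.84 ± 0.656 in A2058 through 3.86 ± 0.674 in A375 to 2.58 ± 0.108 in SKMEL2, and each step passed (adjusted p = 1.8e-06 and 0.00035). AMD1 stood at 15.5 ± 0.230, 11.3 ± 1.37 and 8.30 ± 0.297 in the same order. Of these steps in AMD1, neither passed (adjusted p = 0.062 and 0.082), but both did without A375 KD2 library 3, which enters through the shared spread (adjusted p = 0.0052 and 0.0088). The first also passed under quantile normalization (0.013) and by limma-voom (0.014), and the second with libraries centred on their median (0.016), while A2058 and SKMEL2 differed by -0.86 (adjusted p = 0.00098). SMS and OAZ2 lay in narrower ranges, with 80.5 ± 6.51 to 101 ± 3.18 and 10.9 ± 0.113 to 12.5 ± 0.937 FPKM. In SMS, SKMEL2 exceeded A375 by 0.32 (limma adjusted p = 0.00052) and A2058 by 0.19 (adjusted p = 0.027). The step from A2058 did not pass under quantile normalization (0.24), by limma-voom (0.078) or with the replicate block (0.079). Nor did it pass without A2058 control 1 (0.055) or 2 (0.088) or SKMEL2 control 2 (0.061) or 3 (0.084). A375 against A2058 was -0.13 in SMS (adjusted p = 0.12). It passed under quantile normalization (0.0042), by limma-voom (0.041) and with the replicate block (0.016). SKMEL2 differed from A375 in OAZ2 by -0.18 (adjusted p = 0.077), and passed without A375 KD2 library 3 (adjusted p = 0.021). In all, 6 members differed between A375 and A2058 against 70.7% of all genes, 7 between SKMEL2 and A2058 against 69.2%, and 6 between SKMEL2 and A375 against 73%.

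The ratio of the first synthesis enzyme to the first breakdown enzyme shows how these changes add up within a library. As a ratio of FPKM, ODC1 to SAT1 was 0.280 ± 0.0416 in A2058 controls, 0.895 ± 0.00322 in KD1 and 1.55 ± 0.0561 in KD2 (SD, n = 3). In SKMEL2 it went from 0.785 ± 0.0407 through 1.00 ± 0.0626 to 2.39 ± 0.247. In both lines the arms did not overlap. In A375 it went from 0.524 ± 0.0632 down to 0.129 ± 0.00286 in KD1 and up to 1.96 ± 0.561 in KD2, whose libraries ran from 1.31 to 2.28.

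**Figure D4:**
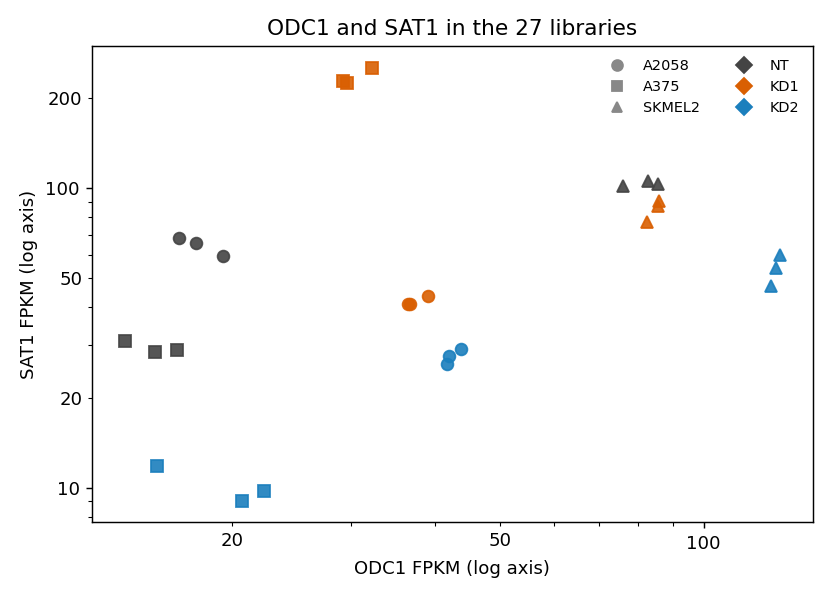
SAT1 against ODC1 in FPKM, both on log axes, in the 27 libraries, with the line as symbol and the arm as colour. A375 KD1 stands alone at the top, at 224 to 253 for SAT1 and 29.2 to 32.3 for ODC1, and in A2058 the knockdown libraries lie lower and to the right of the controls.

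Within lines, the members varied together in part. After centring log2(FPKM + 0.5) on each line, AMD1 and ARG2 had r = -0.89 across the 27 libraries and SRM and ARG2 r = -0.77, while AMD1 and SRM had r = 0.63. ODC1 and SAT1 had r = 0.15. The points share libraries, depth and arms, so these values only describe the data.

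By the same measure over 16162 genes, the genes most like ODC1 were CASP8 (r = 0.94), PNPLA2 (r = 0.93) and IGF2R (r = 0.93). Within A2058, A375 and SKMEL2 taken alone, CASP8 had r = 0.98, 0.91 and 0.91 with ODC1. The genes most like SAT1 were LDOC1, VANGL2 and ZFP42, each with r = 0.95. For ZFP42 the likeness lay in A375 (r = 0.99) and SKMEL2 (r = 0.92), with r = 0.00 in A2058.

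Of 46 other genes listed for the pathway and its supply, 43 were in the table and 35 were tested over the mean of the lines, where 12 rose, 18 fell and 5 did not pass. Of all genes 32% rose and 32% fell in that comparison. Their median was -0.16 beside -0.00 for all genes. These genes include the antizyme inhibitors, which are ODC1-like proteins that free ODC1 from antizyme. AZIN1 fell in both arms of every line. It stood at 74.7, 82.6 and 73.1 FPKM in A2058 controls, 40.8, 40.2 and 41.6 in KD1 and 36.2, 36.3 and 33.3 in KD2, and its change over the lines was -0.91 ± 0.04. In A375 AZIN1 fell from 29.5 to 34.8 in the controls to 10.9 to 18.6 in the knockdown libraries, and in SKMEL2 from 34.5 to 35.8 down to 21.1 to 26.0. AZIN1 fell where ODC1 rose, apart from KD1 of SKMEL2, where the ODC1 difference did not pass, and KD2 of A375, where it did not pass with each line fitted alone and all libraries in.

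AZIN2 was low, at 0.657 to 1.52 FPKM, and its averaged effect was -0.28 ± 0.09 in A2058, 0.27 ± 0.14 in A375 and 0.35 ± 0.07 in SKMEL2, of which the second did not pass. MTAP, which salvages the methylthioadenosine left over from spermidine and spermine synthesis, rose by 0.63 ± 0.04 in A2058 and by 0.13 ± 0.04 in SKMEL2, and its -0.09 ± 0.14 in A375 did not pass. ENOPH1, a later enzyme of that salvage, changed by -0.38 ± 0.04 over the lines. SAT2, a relative of SAT1, rose by 0.34 ± 0.06, and of the enzymes that turn spermidine into hypusine on eIF5A, DOHH rose by 0.40 ± 0.05 and DHPS by 0.35 ± 0.07 over the lines. These means cover arms that differ. In KD2 of A2058 every DHPS library lay below every control, with a ratio of mean FPKM of 0.842. DOHH overlapped the controls in both arms of A375 (1.10 and 1.14), and SAT2 in KD1 of A2058 (1.07) and KD2 of SKMEL2 (1.06). ENOPH1 overlapped them in KD1 of A2058 (0.953) and SKMEL2 (0.951). Averages within a line cover such arms too. AZIN2 overlapped the controls in KD2 of A2058 (0.998) and A375 (1.08), and MTAP in KD1 of SKMEL2 (0.988).

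On the supply side, 2 of 10 tested arginine and polyamine transport genes rose over the lines, 6 fell and 2 did not pass, beside 32% of all genes in each direction. ATP13A3, of the same list, lay above the controls in both arms of A2058 (ratios of mean FPKM of 3.34 and 3.05) and SKMEL2 (2.34 and 1.78). In A375 it lay above them in KD1 (2.09) and overlapped them in KD2 (1.15). SLC7A1, the main carrier of arginine into many cells, stood at 27.7 to 31.7 FPKM in A2058 controls, 19.1 to 20.1 in KD1 and 5.68 to 6.04 in KD2. In SKMEL2 SLC7A1 held 18.4 to 20.5, 17.8 to 20.1 and 5.38 to 5.53, so that KD1 overlapped the controls there. SLC7A5, a carrier of large neutral amino acids, and its partner SLC3A2 changed by -1.25 ± 0.05 and -0.67 ± 0.06 over the lines. SLC3A2 overlapped the controls in KD2 of A2058 and SKMEL2, with ratios of mean FPKM of 1.13 and 0.972. PYCR1 and ALDH18A1, which join proline to the same glutamate and ornithine pool, changed by -0.69 ± 0.06 and -0.47 ± 0.05. Both overlapped the controls in KD1 of A375, with ratios of 0.999 and 1.21.

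Of 8 tested genes listed as known regulators of ODC1 or SAT1, all 8 fell over the mean of the lines, beside 32% of all genes. In single lines 7 fell in A2058 and 1 did not pass, 5 fell in A375 and 3 did not pass, and 7 fell and 1 rose in SKMEL2, where 34.7%, 21.7% and 32.4% of all genes fell. MYC fell by -0.66 ± 0.06, MXI1, its antagonist in the MAX network, by -0.77 ± 0.03 and NFE2L2, a factor that binds the SAT1 promoter, by -0.65 ± 0.11. MXI1 and NFE2L2 overlapped the controls in KD1 of A375, with ratios of mean FPKM of 1.03 and 0.611. MYC stood at 8.15 to 8.51 FPKM in A2058 controls, 4.20 to 4.78 in KD1 and 5.92 to 7.45 in KD2. In SKMEL2 MYC stood at 15.2 to 16.2, 8.25 to 9.15 and 10.4 to 10.6. Of the members with an E-box in a window above, SRM fell and ODC1 rose over the lines, by -0.51 ± 0.05 and 0.71 ± 0.05.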

How the data were processed

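The series' design text names paired reads of 50 nt and GENCODE release 34 on GRCh38. The tools that the submitters' processing notes credit to the authors are STAR 2.7.3a and featureCounts (Subread 2.0.0), with DESeq2 1.28.1, after FastQC 0.11.9, Trimmomatic 0.39 and MultiQC 1.9; their settings and the strand are not stated. The deposited expression sheet holds FPKM for 26004 genes and 27 libraries. The authors' 4 deposited DESeq2 sheets hold a base mean (a normalised signal), a log2 fold change and p-values, raw and adjusted.

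The members and gene lists were chosen with earlier results of these data known. Tests were run on log2(FPKM + 0.5) with limma 3.58.1 (R 4.3.3), using a variance trend and Benjamini-Hochberg adjustment over all genes with at least 1 FPKM in at least 3 libraries of the fit. This scale understates the change of low genes. Each line was fitted alone, and a fit of 27 libraries in 9 groups gave means over lines, control levels and F-tests between lines. The fits were tested on simulated data. Reads came out whole for 100% of values (within 0.05) from FPKM and base mean, and served for depth and limma-voom. Per the series' design text, 1 raw file of A375 control 2 was truncated. The library was kept. Alternatives were other pseudocounts, no filter, quantile or median scaling, no trend, limma-voom, 1 fit of all libraries, a replicate block and leaving out each library. The between-line test of the arms' difference was added after the data were seen.

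Besides the members, AZIN1, AZIN2, MTAP and SIRT5, the named genes are, per list, up to 3 of largest effect called the same way in each line, or else the 2 largest over the lines, and the 3 genes most like ODC1 and SAT1. ATP13A3 was added after the data were seen. Coordinates are from GENCODE release 44. Figures were drawn with matplotlib 3.10.9.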

Additional observations from a re-analysis of the deposited data

Results flagged for a closer look

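AMD1 in library 3 of the A375 KD2 arm lay far from the other knockdown libraries of its line. Its gap to the next library was 0.683 of the range of the 6 libraries, above Dixon's critical value for 6. It was the 1 value flagged among 27 sets of 6 libraries, and chance flags about 1 in 20. The 6 libraries hold both knockdown arms.

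The averaged knockdown effect differed between lines for 5 members by limma's F-test, which uses the changes against control known when the members were proposed. The adjusted p was 2.4e-10 for SAT1, 8.4e-06 for SMS, 2.5e-05 for ODC1, 0.0011 for ARG2 and 0.019 for OAZ2. The A375 average of SAT1 covers arms that moved in opposite directions. The difference between KD2 and KD1 varied by line for 6 members, with an adjusted p of 3.4e-15 for SAT1, 3.1e-07 for ODC1, 0.00019 for SMOX, 0.0016 for ARG2, 0.032 for SRM and 0.036 for OAZ2.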

How the results depend on the processing

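Counts of called members changed by over 1.5 times in 2 comparisons. For KD2 against KD1 in A375 the count went from 2 to 5 under quantile normalization, 4 by limma-voom and 4 with all 27 libraries in 1 fit. For the knockdown effect between lines it went from 5 to 8 under quantile normalization and 9 by limma-voom. The cause was not tested. Leaving out 1 library at a time gave 8 to 8 in A2058, 6 to 7 in A375, 7 to 8 in SKMEL2 and 6 to 6 over lines for knockdown against control, and 6 to 7, 2 to 5 and 7 to 8 for KD2 against KD1. It gave 4 to 7 for the knockdown effect between lines, 4 to 6 for the arms' difference between lines, and 5 to 6, 6 to 7 and 6 to 6 for control levels. Library numbers do not pair the samples. With the replicate block the A375 knockdown count was 6, the SKMEL2 count for KD2 against KD1 8 and the counts between lines 4 for the knockdown effect and 4 for the arms' difference, which lost SRM and OAZ2. The control-level counts became 6, 6 and 5. For these counts the move was 1.5 times or less.

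Small log2 differences turned sign. Quantile normalization gave SMS -0.01 (knockdown) and -0.02 (KD1) in A2058, and for KD2 against KD1 0.03 in A2058 and 0.05 in A375. It gave OAZ1 0.06 (KD2 against KD1, A2058), -0.22, -0.12 and -0.33 (knockdown, KD1 and KD2 in A375) and -0.12 over lines. SMOX became -0.04 (KD2, A375), 0.00 (SKMEL2) and 0.03 (SKMEL2 over A2058 controls), with OAZ2 at 0.01 there and SRM at 0.14 for SKMEL2 over A375. Median centring gave OAZ2 0.01 (A2058), SMS 0.07 (KD2 against KD1, A2058), 0.06 (A375) and 0.00 over lines, OAZ1 0.01 (KD2 against KD1, A2058; KD2, SKMEL2), ARG2 0.00 (KD2 against KD1, A375) and SMOX 0.00 (SKMEL2). Limma-voom gave SMS 0.02 (KD2 against KD1, A2058 and A375), OAZ1 -0.11, -0.01 and -0.20 (knockdown, KD1, KD2, A375), 0.02 (KD2, SKMEL2) and -0.05 over lines, OAZ2 -0.01 (KD1, A375), and SMOX -0.18 (KD2, A375), 0.02 (SKMEL2) and -0.03 over lines. Without 1 library, OAZ2 ranged from -0.03 to 0.03 (A2058), SRM from -0.05 to 0.07 (KD2 against KD1, A2058) and -0.08 to 0.09 (SKMEL2 over A375 controls), SMS from -0.12 to 0.05 (KD2 against KD1, A375) and -0.01 to 0.06 (KD2, SKMEL2), and OAZ1 from -0.17 to 0.23 (KD2, A375) and -0.04 to 0.03 (KD2, SKMEL2). SMOX ranged from -0.05 to 0.04 (SKMEL2 over A2058 controls), -0.13 to 0.02 (A375), -0.10 to 0.21 (KD2, A375) and -0.05 to 0.03 (SKMEL2).

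Limma-voom also scaled libraries otherwise, to their total reads and not by the size factors in the FPKM. With it the median of all genes moved by -0.23 in A375 knockdown. The share of calls that were higher went from 54.7% to 35.1% there, and to 37.1% from 50% over lines. Median centring moved KD2 against KD1 in A2058 by 0.12, from 43.7% to 53.9%. The shallow A375 libraries give the least precise values.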
